A study of Mus musculus with 15 samples.

Results

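Mesoporous silica nanoparticles (MSNPs) were compared with no treatment in RAW 264.7 cells, a mouse macrophage line. The comparison takes 6 of the 15 libraries of the series: 3 from macrophages kept for 6 h with 200 µg/mL of MSNPs, whose nominal diameter is 100 nm, and 3 from nontreated controls. The samples were assigned to their groups by their labels alone. 2 other particle groups of 3 libraries each serve as a reference. Hollow mesoporous particles (HMSNPs) were given at the same 200 µg/mL and have the same nominal 100 nm, and nonporous particles of 100 nm (SNP100) were given at 50 µg/mL, so that SNP100 differed from MSNP in dose as well as in pores. 3 libraries of cells with nonporous particles of 50 nm (SNP50) at 25 µg/mL enter the model fit and are shown in plots of all libraries. All groups share the cell line, the medium and the 6 h, and the doses were set by the study as the highest that were not toxic. 1 cell line was used, nothing in the sources says that the 3 libraries of a group came from separate cultures, and each group's library names carry a number of their own whose meaning is not given in the sources used here. P-values therefore measure the spread between these libraries, which may be technical, and if these numbers mark batches, batch and treatment cannot be told apart.

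Macrophages take up particles into phagosomes and endosomes that mature into lysosomes. A lysosome is acidified by the V-ATPase, a proton pump with a membrane part (V0) and a catalytic part (V1), and it digests its content with acid hydrolases. The transcription factors of the MiT/TFE family, which are Mitf, Tfeb, Tfe3 and Tfec, bind the letters CACGTG in promoters of lysosomal genes, and the Rag GTPases with folliculin hold them at the lysosome when nutrients are plentiful. The integrated stress response is a second program that macrophages can switch on. In it, phosphorylation of eIF2 alpha raises translation of Atf4, a factor that induces genes for amino acid supply and the factors Ddit3 and Trib3.

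The 6 libraries held 31652167 to 39704827 counts. Control replicate 3 stood apart before any gene was tested. Over 10652 genes ordered by transcript length in 10 bins, its shortest transcripts lay 0.607 above and its longest 0.6 below the mean of the other controls on the log2 scale. Control replicate 2 had -0.378 and 0.417 by the same measure, in which Control replicate 3 is part of the reference. Each of the 3 MSNP libraries stayed within 0.074 of the mean of the other MSNP libraries at both ends. The mean chi-square per gene between control libraries was 73.07 to 225.6, and between MSNP libraries 4.945 to 9.725. In the comparison with the controls, each gene list is therefore given with all controls and without Control replicate 3. A fit with an offset for transcript length, called the length offset below, is named for that comparison where it ended a call or moved a value by more than 1.5 times. The cells carried the macrophage markers. All 10 were measured, with a summed level of 16800 to 20900 CPM, which are counts scaled to a common library size, in controls and 14800 to 15800 CPM in MSNP-treated cells. Of them, Mpeg1 (log2 fold change 1.01) and Cd68 (0.68) were upregulated, Csf1r (-0.65), Cd14 (-0.78), Fcgr1 (-0.76), Itgam (-0.46), Lyz2 (-0.39) and Mertk (-0.78) were downregulated, and Adgre1 and Spi1 did not pass the test. The call of Mertk was lost without Control replicate 2 or MSNP replicate 3. In such bulk samples, fewer cells of a type and less RNA per cell cannot be told apart. Summed markers of T, B and NK cells, fibroblasts and epithelium were at most 0.0889 CPM in each of the 6 libraries, with Cd3e, Ms4a1, Ncr1, Epcam and Col1a2 at 0. Dendritic markers summed to 2.37 to 3.04 CPM in controls and 2.61 to 3.32 CPM with MSNPs, neutrophil markers to 1.36 to 3.2 and 1.48 to 1.82 CPM, and the 3 endothelial markers to 2.5 to 5.72 and 8.33 to 10.3 CPM, of which 1 rose. The part of these markers in the results was not tested.

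After 6 h with MSNPs, the macrophages carried more mRNA for lysosomal pump subunits, lysosomal enzymes and membrane proteins, for the Rag and folliculin genes, for several genes of lipid and iron handling and for a few inflammatory mediators. They carried less mRNA for Fos and its relatives Fosl2 and Junb, for several targets of TGF-beta, for 23 of 40 interferon-stimulated genes and for 7 of 16 chemokines. The lists of lipid, cytokine, chemokine, TGF-beta and immediate early genes each held changes in both directions. At an adjusted p below 0.05 by the quasi-likelihood test of edgeR, with Benjamini-Hochberg adjustment over 19839 tested genes, 2348 genes were upregulated (11.8% of those tested) and 2179 were downregulated (11.0%). With a change of at least 2-fold as well, 734 rose (3.7%) and 742 fell (3.74%). The median size on the log2 scale was 0.65 among upregulated and 0.71 among downregulated genes, and 256 and 250 of them changed at least 4-fold. Without Control replicate 3, 3203 genes rose (16.3% of 19611) and 2582 fell (13.2%), and without Control replicate 2, 3214 rose and 3308 fell. Protein-coding genes and long noncoding RNAs differed in balance. Of 13135 protein-coding genes, 2202 rose (16.8%) and 1764 fell (13.4%), with a median log2 fold change of 0. Without Control replicate 3, 3022 of 13062 rose and 2183 fell. Of 2699 long noncoding RNAs, 83 rose (3.08%) and 303 fell (11.2%), with a median of -0.39 (99, 292 and -0.3 without Control replicate 3). The counts of the gene lists below stand beside the shares of protein-coding genes as well as those of all genes.

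**Figure D1:**
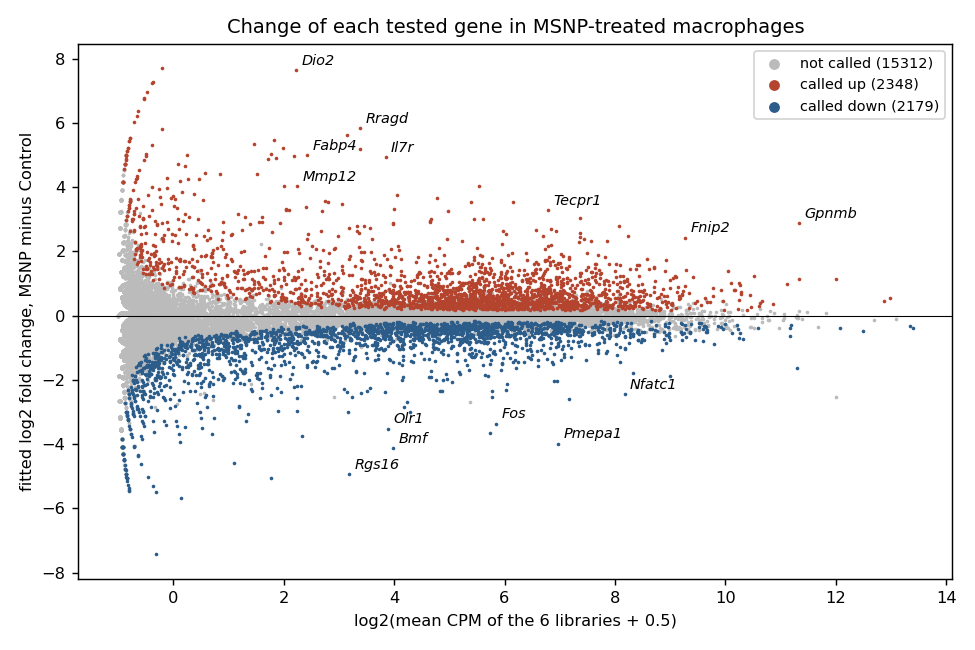
Fitted log2 fold change of MSNP-treated over nontreated macrophages (y axis) against log2(mean CPM of the 6 libraries + 0.5) (x axis) for all tested genes, red where upregulated, blue where downregulated and grey where not called. Upregulated (2348) and downregulated (2179) genes are found at low and at high levels, and Gpnmb lies at a high mean level with a log2 fold change of 2.88, and Pmepa1 at -3.99.

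The largest relative increases were found in genes with low levels in the controls. Dio2, the deiodinase that activates thyroid hormone (ENSMUSG00000007682, chromosome 12, bases 90691322 to 90705819 on the minus strand), had 0.0609, 0.0578 and 0 CPM in the 3 controls and 7.998, 8.74 and 8.09 CPM in the 3 MSNP libraries (log2 fold change 7.64 ± 0.36 (SE), edgeR adjusted p = 6.57e-10). Tspan10, a tetraspanin, had 0.183, 0.318 and 0.469 CPM in controls and 16.2, 16.8 and 16.4 CPM with MSNPs. Il7r, the receptor subunit for interleukin-7, had 0.944, 1.33 and 0.391 CPM and 27.3, 27.6 and 25.8 CPM. The groups were far apart in each of these genes, and no MSNP library came near a control. Others among the 15 largest increases by the rule used were Sstr5 (5.34), Card14 (5.19), Dok7 (5.03), Efcab6 (4.97), Ptpn14 (4.91), Cyp4f39 (4.87) and Slamf7 (4.42), all under 20 CPM. Gm4131 had 0 counts in the controls and 74 in the MSNP libraries, so that it was at least 25.8-fold higher against a floor of 3 counts per group. Pmp22, a membrane protein of myelin that also occurs in other cells, rose from 34.1, 33.8 and 39.8 CPM to 299, 289.7 and 286 CPM (log2 fold change 3.02 ± 0.08 (SE), edgeR adjusted p = 2.63e-12), and Ighg2c, listed in the annotation as an immunoglobulin gene segment, from 0.213, 0.116 and 0.0781 to 6.15, 6.21 and 5.51 CPM. Card14, Dio2, Ptpn14 and Slamf7 overlap another annotated gene on the opposite strand, and Sstr5 overlaps one on the same strand. With the strand setting of the counting not known, reads of such pairs cannot be told apart, here and for the overlapping genes named below.

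The largest decreases included genes that were well expressed in the controls. Bmf, a BH3-only protein that promotes apoptosis (ENSMUSG00000040093, chromosome 2, bases 118359238 to 118380177 on the minus strand), fell from 29.4, 31.5 and 26.3 CPM to 1.42, 1.78 and 1.75 CPM (log2 fold change -4.13 ± 0.14 (SE), edgeR adjusted p = 2.29e-11). Rgs16, which ends signaling of G protein-coupled receptors, had 15.9, 16.6 and 17.6 CPM in controls and 0.562, 0.621 and 0.445 CPM in MSNP libraries. Pald1, which encodes paladin, fell from 107, 109 and 108 CPM to 21.8, 21.6 and 21.6 CPM (log2 fold change -2.32 ± 0.06 (SE), edgeR adjusted p = 2.63e-12). None of these genes had an MSNP library near the range of the controls. Ermap (-5.05), the growth factor gene Areg (-3.95), Tmem119 (-3.75), the vitamin D receptor Vdr (-3.69), Zfp618 (-3.68), Frat2 (-3.49), Frat1 (-3.45) and the ectonucleotidase Nt5e (-3.29) also belonged to the 15 largest decreases. Wnt1, which overlaps another gene on the opposite strand, had 127 counts in the controls and 2 with MSNPs, a ratio of 0.0165 with a 95% counting interval of 0.00198 to 0.0608. Rgs16 overlaps another annotated gene on the opposite strand.

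Lysosomal genes rose in all 3 of their lists: pump subunits, digestive enzymes and membrane proteins. Of 18 V-ATPase genes, 12 rose and 0 fell, with a median log2 fold change of 0.62 against -0.05 over all tested genes (18, 0 and 0.78 without Control replicate 3). Of 48 lysosomal hydrolases and their activators, 34 rose and 3 fell, with a median of 0.48 (37, 3 and 0.54), and of 29 lysosomal membrane proteins, 22 rose and 0 fell, with a median of 0.64 (23, 1 and 0.59). These shares stand beside 11.8% upregulated and 11.0% downregulated among all genes, and 16.8% and 13.4% among protein-coding genes. The median of the V-ATPase list relative to the mean of the controls was 0.608 to 0.657 in the 3 MSNP libraries and at most 0.196 in each other library of the series, and that of the membrane list 0.593 to 0.683 against at most 0.118. In the heat map of list medians by library, these rows were uniformly high in the MSNP columns.

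Within the pump, the membrane subunit Atp6v0d2 (ENSMUSG00000028238, chromosome 4, bases 19876838 to 19922614 on the minus strand) changed most. It had 32.03, 32.5 and 26.3 CPM in controls and 206, 192 and 192 CPM with MSNPs (log2 fold change 2.7 ± 0.08 (SE), edgeR adjusted p = 1.11e-11). The catalytic subunit Atp6v1a had 601, 710.0 and 464 CPM in controls and 1591, 1552 and 1462 CPM with MSNPs. In both subunits each MSNP library was more than 2 times as high as the highest control. Atp6v1d (1.62), Atp6v1c1 (1.51), Tcirg1 (1.2), the a3 subunit of the V0 part, Atp6v0d1 (1.18), Atp6v0a1 (1.09) and Atp6v0c (1.04) rose by at least 1 on the log2 scale. Atp6v1g1 (0.41), Atp6v0e (0.24), Atp6v0b (0.23), Atp6v1e1 (0.22), Atp6v1f (0.16) and Atp6ap2 (0.09) did not pass the test with all controls and did without Control replicate 3. Atp6ap2, Atp6v0b, Atp6v0d1, Atp6v1a, Atp6v1d and Atp6v1e1 overlap another annotated gene on the opposite strand.

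Among the hydrolases, Hyal1, which digests hyaluronan, rose from 12, 11.54 and 8.33 CPM to 81.6, 82.3 and 94.4 CPM. Gla, the alpha-galactosidase that is deficient in Fabry disease, rose from 48.4, 52.2 and 61.5 CPM to 216, 205 and 197 CPM. The abundant cathepsin Ctsb rose from 2427, 2578 and 2718 CPM to 5861, 5638 and 5532 CPM (log2 fold change 1.14 ± 0.06 (SE), edgeR adjusted p = 1.26e-09). The groups did not overlap in any of the 3 genes. Dpp7 (1.59), the heparan sulfate enzyme Naglu (1.21), the acid glucosidase Gaa (1.19), the sphingolipid activator precursor Psap (1.14) and Ctsd (1.0) rose as well. The 3 that fell were Ctsh (-0.72), Ctsf (-0.44) and Acp5 (-0.31), a phosphatase used as an osteoclast marker. The call of Acp5 was lost without any of MSNP replicates 1 and 2, Control replicate 3 and HMSNP replicates 2 and 3. Acp5, Ctsb, Ctsf, Dpp7 and Gla overlap another annotated gene on the opposite strand, and Ctsd and Hyal1 overlap one on the same strand.

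Channels and transporters of the lysosomal membrane moved with the enzymes. The chloride-proton exchanger Clcn7 rose from 65.8, 69.2 and 46.7 CPM to 184, 190.1 and 191 CPM (log2 fold change 1.64 ± 0.11 (SE), edgeR adjusted p = 4.64e-08), and its partner subunit Ostm1 by 0.98 on the log2 scale. The calcium channel Mcoln1 had 42.02, 35.7 and 36.5 CPM in controls and 87.4, 88.4 and 91.8 CPM with MSNPs. The cystine exporter Ctns (1.61), Mfsd12 (1.4), the cholesterol exporter Npc1 (1.14), Cd164 (1.18), the channel Tpcn2 (0.85), Slc17a5 (0.7) and the structural protein Lamp1 (0.64) rose as well. Ctns, Lamp1, Mfsd12, Npc1 and Ostm1 overlap another annotated gene on the opposite strand.

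**Figure D2:**
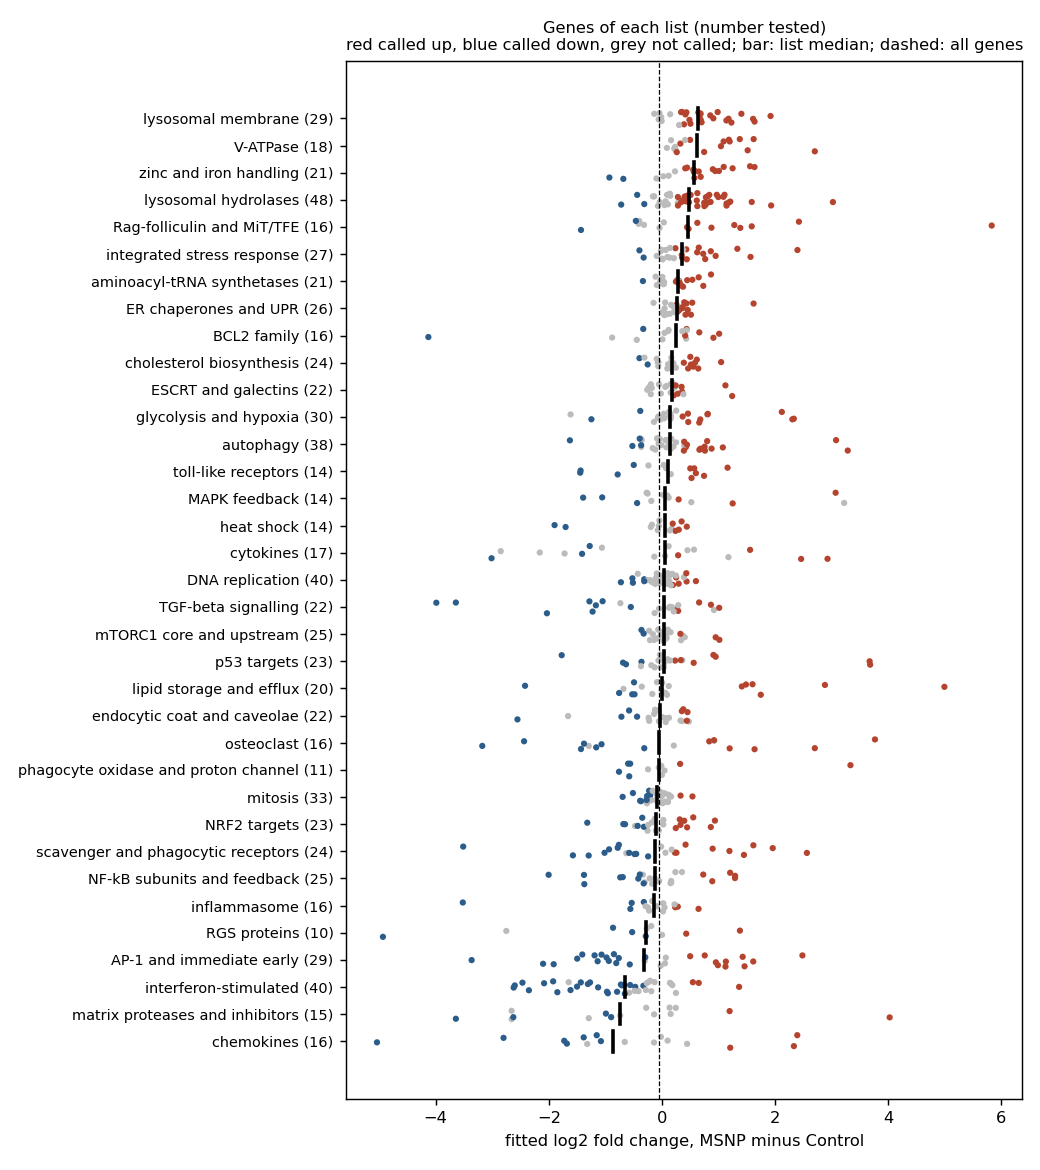
Log2 fold change of MSNP-treated over nontreated macrophages (x axis) for each gene of each list (rows), with the median of the list marked. The V-ATPase and lysosomal membrane medians lie at 0.62 and 0.64, the interferon-stimulated median at -0.66, and several lists hold large changes in both directions around a median near 0.

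The letters CACGTG were counted in RefSeq promoters (250 bases before to 50 after the start, both strands). MiT/TFE factors bind these letters, as do other transcription factors of the basic helix-loop-helix class. The window of 10145 tested protein-coding genes was available, and CACGTG was found in 1157 of them (11.4%). It was found in 302 of 1725 upregulated genes (17.5%), 115 of 1384 downregulated genes (8.31%) and 740 of 7036 genes that were not called (10.5%). The longer TCACGTGA, which contains CACGTG, was found in 2.11% of all, 4.06% of upregulated and 1.08% of downregulated genes. In the 3 lysosomal lists together, 23 of 74 promoters held CACGTG (31.1%), 18 of the 54 upregulated (33.3%) and 5 of the 20 others (25.0%). Bases -150 to -1 of 6 promoters are shown because they belong to genes described here that rose and have a match. They were read from RefSeq for GRCm38.p6 and placed on GRCm39 by exact match, and capitals mark CACGTG.
Mcoln1: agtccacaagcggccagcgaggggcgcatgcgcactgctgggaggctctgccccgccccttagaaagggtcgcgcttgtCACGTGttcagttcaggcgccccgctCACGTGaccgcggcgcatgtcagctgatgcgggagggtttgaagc
Lamp1: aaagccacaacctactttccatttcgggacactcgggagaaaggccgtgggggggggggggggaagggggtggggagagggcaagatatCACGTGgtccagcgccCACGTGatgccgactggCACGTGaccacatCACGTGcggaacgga
Clcn7: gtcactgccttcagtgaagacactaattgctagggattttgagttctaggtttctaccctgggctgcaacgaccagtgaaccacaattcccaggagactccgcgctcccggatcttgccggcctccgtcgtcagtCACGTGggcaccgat
Atp6v1a: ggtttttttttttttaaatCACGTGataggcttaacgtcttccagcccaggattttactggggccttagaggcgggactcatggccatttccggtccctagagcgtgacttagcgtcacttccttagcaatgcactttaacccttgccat
Rragc: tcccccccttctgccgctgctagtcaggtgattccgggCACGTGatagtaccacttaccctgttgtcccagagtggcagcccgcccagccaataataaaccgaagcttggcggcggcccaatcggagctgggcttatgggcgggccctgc
Fnip1: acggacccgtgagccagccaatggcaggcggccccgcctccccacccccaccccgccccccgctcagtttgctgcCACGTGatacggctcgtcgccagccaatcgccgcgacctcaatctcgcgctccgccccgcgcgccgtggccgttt
Lamp1 held 4 matches, Mcoln1 2 and the others 1, and in Mcoln1 and Atp6v1a 1 match was part of TCACGTGA. No match was found for Rragd, Flcn, Fnip2, Tecpr1, Dio2, Tspan10 and Gpnmb, which may include genes without an available window. The locations are chr8:3550369-3550518 (plus strand) for Mcoln1, chr8:13209011-13209160 (plus strand) for Lamp1, chr17:25352215-25352364 (plus strand) for Clcn7, chr16:43959623-43959772 (minus strand) for Atp6v1a, chr4:123811076-123811225 (plus strand) for Rragc and chr11:54328855-54329004 (plus strand) for Fnip1. A match is a stretch of letters and not a measured binding site, and it does not tell which of these factors binds there.

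The 4 Rag GTPases, folliculin and its partners, which hold MiT/TFE factors at the lysosome, rose, and the factors Mitf and Tfe3 fell. Of 16 genes of this list, 9 rose and 2 fell, with a median of 0.46 (11, 2 and 0.51 without Control replicate 3, whereas 5 fell without Control replicate 2). Rragd had 0.304, 0.2602 and 0.443 CPM in controls and 21.9, 20.02 and 16.4 CPM with MSNPs. Its partner Rragc rose from 133, 142 and 131 CPM to 420.4, 399 and 399 CPM (log2 fold change 1.59 ± 0.06 (SE), edgeR adjusted p = 1.08e-10). Fnip2, the binding partner of folliculin, rose from 209, 266 and 106 CPM to 1049, 1088 and 969 CPM (log2 fold change 2.42 ± 0.22 (SE), edgeR adjusted p = 9.78e-07). Rragd was near the detection limit in controls, whereas Rragc and Fnip2 rose from a substantial level. Fnip1 (1.38), Flcn (1.28), Lamtor3 (0.87), Rragb (0.47) and Rraga (0.44) rose. Among the factors, Mitf fell from 115, 121 and 74.3 CPM to 39.9, 36.6 and 38.2 CPM (log2 fold change -1.43 ± 0.13 (SE), edgeR adjusted p = 9.57e-07) and Tfe3 from 157, 157 and 165 CPM to 118, 115 and 115 CPM. Tfec had 2.01, 2.75 and 2.395 CPM and 3.27, 4.08 and 3.67 CPM, a call that was lost without Control replicate 1 or MSNP replicate 2. Tfeb (-0.32, edgeR adjusted p = 0.0576) did not pass, and was called lower without Control replicate 2. Flcn, Lamtor3 and Rragc overlap another annotated gene on the opposite strand.

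The core of mTORC1, the growth kinase that the Rag GTPases recruit, changed little in mRNA. Of 25 genes, 3 rose and 2 fell, with a median of 0.04 (6, 5 and 0.05 without Control replicate 3, 6 and 4 without Control replicate 2, and 1 decrease without MSNP replicate 2), and the median was -0.04 with the length offset. With all controls, the shares that rose and fell were near the 11.8% and 11.0% of all genes. Without Control replicate 3, the 6 and 5 of 25 stand beside 16.3% and 13.2% of all genes. Among protein-coding genes, 3022 and 2183 of 13062 were called in that fit. The inhibitors Tsc1 (1.01) and Sesn2 (0.95) and the kinase target Rps6kb1 (0.33) rose, and Sesn1 (-0.36) and Ddit4 (-0.32) fell. The calls of Rps6kb1 and Ddit4 were lost with the length offset, and that of Ddit4 also without MSNP replicate 2. Rps6kb1 and Sesn1 overlap another annotated gene on the opposite strand.

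Autophagy genes were mixed, with large increases in a few that act at the lysosome or on cargo. Of 38 genes, 13 rose and 4 fell, with a median of 0.14 (17, 8 and 0.08 without Control replicate 3; 1 fell without MSNP replicate 1 and 2 without MSNP replicate 2). Tecpr1, which tethers autophagosomes to lysosomes (ENSMUSG00000066621, chromosome 5, bases 144131258 to 144160913 on the minus strand), rose from 22.9, 21.8 and 16.8 CPM to 194, 203 and 202 CPM (log2 fold change 3.28 ± 0.11 (SE), edgeR adjusted p = 4.14e-11). The cargo receptor Sqstm1 (p62) rose from 656, 709.9 and 746 CPM to 1299, 1216 and 1157 CPM. Tecpr1 rose about as much in each MSNP library, and the smaller change of Sqstm1 also left the groups apart. Optn (3.08), Plekhm1 (1.07), Rubcn (0.88), Atg7 (0.76), Vps18 (0.75), Atg13 (0.68) and Map1lc3b (0.42) rose, the last not with the length offset. Wipi1, which binds phosphoinositides on the forming autophagosome, fell from 9.71, 11.9 and 9.45 CPM to 2.88, 3.35 and 3.79 CPM. Atg13, Map1lc3b, Optn, Plekhm1, Rubcn, Sqstm1, Tecpr1 and Wipi1 overlap another annotated gene on the opposite strand.

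Lgals3 and Lgals8, galectins that bind damaged endomembranes, rose, and the ESCRT genes called, whose proteins repair such membranes, changed by less. Of 22 genes of that list, 7 rose and 0 fell, with a median of 0.17 (12, 0 and 0.23 without Control replicate 3, whereas 3 fell without Control replicate 2 and 1 without Control replicate 1). Lgals3 rose from 746, 738 and 1123 CPM to 2098, 2028 and 2032 CPM (log2 fold change 1.24 ± 0.12 (SE), edgeR adjusted p = 1.97e-06), and Lgals8 from 51.6, 56.01 and 42.2 CPM to 112, 106 and 108 CPM. The groups did not overlap in either gene, and Control replicate 3 was the highest control for Lgals3 and the lowest for Lgals8. The ESCRT genes Vps37a (0.36), Chmp2b (0.35) and Vps37b (0.28) rose by less than 0.4 each. Lgals9 (0.16) and Lgals1 (0.19) did not pass, and were called higher without Control replicate 3 (0.34 and 0.5). Chmp2b, Lgals8, Vps37a and Vps37b overlap another annotated gene on the opposite strand.

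Most iron and zinc genes rose. Of 21, 15 rose and 2 fell, with a median of 0.57 (15, 2 and 0.68 without Control replicate 3). Slc11a2, which moves iron out of endosomes, rose from 60.7, 64.4 and 60.8 CPM to 197, 192 and 188 CPM (log2 fold change 1.64 ± 0.06 (SE), edgeR adjusted p = 5.77e-11). The cellular iron exporter Slc40a1 (ferroportin) had 3.96, 5.12 and 2.92 CPM and 12.2, 12.5 and 10.5 CPM. Both genes were above the range of the controls in each MSNP library. Ncoa4 (1.25), which delivers ferritin to lysosomes, the ferrireductase Steap3 (1.09), the zinc exporter Slc30a1 (1.01) and the transferrin receptor Tfrc (0.41) rose. Ferritin light chain Ftl1 had 5417, 5376 and 8912 CPM in controls and 9896, 9594 and 9402 CPM with MSNPs, so that Control replicate 3 was close to the MSNP libraries, and the same held for the metallothionein Mt2 (0.56). Ftl1 has near-identical pseudogenes, so its counts are uncertain. Heme oxygenase Hmox1 (-0.68) and the importer Slc39a14 (-0.93) fell, of which Hmox1 was not called with the length offset. Mt2, Ncoa4, Slc11a2 and Slc30a1 overlap another annotated gene on the opposite strand, and Ftl1 overlaps one on the same strand.

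Lipid genes changed in both directions, with Gpnmb, Plin2 and Fabp4 higher and Lpl and Mylip lower. Of 20 genes, 6 rose and 5 fell, with a median of 0 (7, 7 and -0.03 without Control replicate 3, and a median of -0.04 with the length offset). Gpnmb, a glycoprotein of lysosomes and lipid-laden macrophages (ENSMUSG00000029816, chromosome 6, bases 49013426 to 49047863 on the plus strand), rose from 630.1, 667 and 560.0 CPM to 4681, 4577 and 4409 CPM (log2 fold change 2.88 ± 0.08 (SE), edgeR adjusted p = 2.63e-12). The lipid droplet coat Plin2 rose from 110.5, 115 and 128 CPM to 372, 353 and 347 CPM, and the fatty acid carrier Fabp4 from 0.304, 0.173 and 0.391 CPM to 9.12, 10.04 and 9.04 CPM. These are separations of the groups at a high, a middle and a low level of expression. Fabp5 (1.75) and the cholesterol esterifying enzyme Soat1 (1.41) rose, and lipoprotein lipase Lpl (-0.76), the desaturase Scd2 (-0.53), the fatty acid receptor Cd36 (-0.49) and the ubiquitin ligase Mylip (-2.42) fell. Abcg1 (-0.17) and Abca1 (-0.68), which export cholesterol, did not pass, and were called lower without Control replicate 3 (-0.28 and -1). In cholesterol synthesis, 9 of 24 rose and 2 fell, with a median of 0.17 (17, 2 and 0.31 without Control replicate 3), among them Insig1 (1.04), which restrains the pathway. Of the 2 decreases, 0 were left without any 1 of the MSNP or HMSNP libraries or SNP100 replicate 1 or 3, and 1 without Control replicate 1 or SNP100 replicate 2. Gpnmb and Soat1 overlap another annotated gene on the opposite strand, and Scd2 overlaps one on the same strand.

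**Figure D3:**
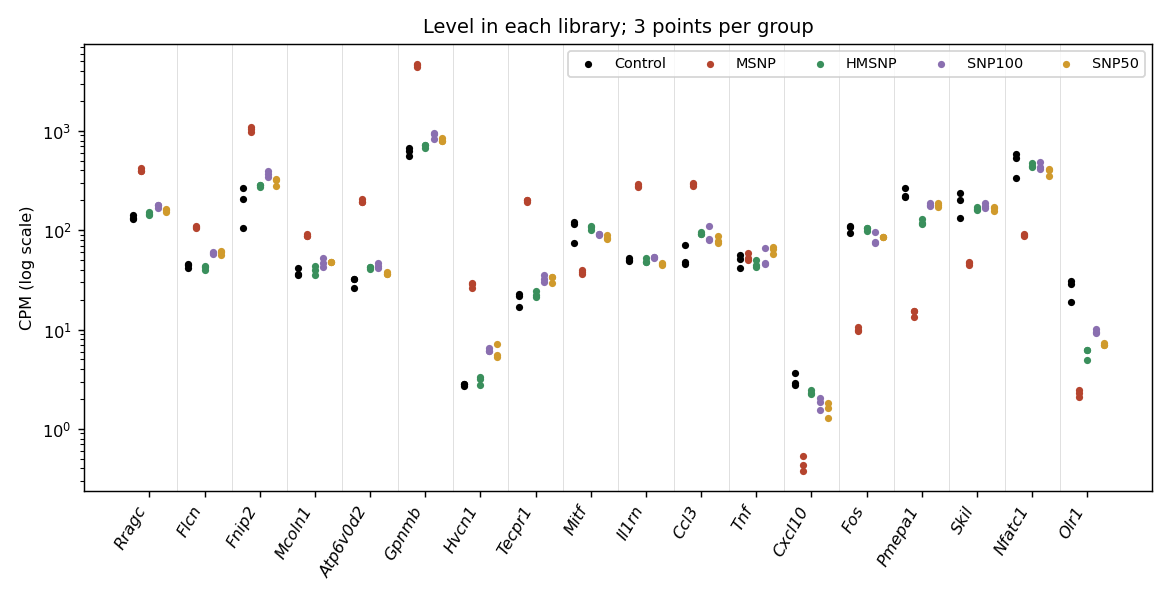
CPM (y axis, log scale) of 18 genes (x axis) in each of the 15 libraries, with 3 points per group in the order Control, MSNP, HMSNP, SNP100 and SNP50, the nonporous 50 nm particles. The MSNP points lie apart from the control points in each of these genes but Tnf, where the groups overlap.

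Genes of the integrated stress response rose, led by Ddit3 and Ppp1r15a. Of 27 genes, 14 rose and 2 fell, with a median of 0.35 (17, 2 and 0.26 without Control replicate 3; the 2 decreases became 0 without MSNP replicate 2 and 1 without MSNP replicate 3 or with the length offset). Ddit3 (CHOP), a factor tied to prolonged stress, rose from 9.56, 9.28 and 10.3 CPM to 53.2, 48.7 and 51.6 CPM (log2 fold change 2.39 ± 0.1 (SE), edgeR adjusted p = 1.38e-10). Trib3, a pseudokinase that restrains Atf4, rose from 17.9, 21.5 and 20.8 CPM to 53.7, 52.2 and 45.8 CPM. Chac1, which degrades glutathione, rose from 7.28, 7.61 and 6.898 CPM to 11.9, 11.2 and 11 CPM. Each of these 3 genes was higher in each MSNP library than in any control, Ddit3 by far the most. Ppp1r15a (1.56), which reverses the phosphorylation of eIF2 alpha, Atf5 (0.73), Atf4 (0.44), Mthfd2 (0.43) and Asns (0.35) rose, and Ddit4 (-0.32) and Nupr1 (-0.4) fell. Asns and Ddit4 were not called with the length offset, and Nupr1 was not called without MSNP replicate 2 or 3. Among aminoacyl-tRNA synthetases, 12 of 21 rose and 1, Qars1 (-0.34), fell, with a median of 0.28 (13, 1 and 0.23), led by Sars1 (0.87) and Aars1 (0.73). Asns, Atf5, Ddit3, Ppp1r15a and Sars1 overlap another annotated gene on the opposite strand, and Aars1 overlaps one on the same strand.

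The letters TGATGNAA, which fit the composite site of Atf4 and C/EBP factors, were found in 2.95% of all promoters, 4.12% of the upregulated and 8 of the 24 promoters available for the list (33.3%). Of these 8 genes, 4 rose (Trib3, Chac1, Asns and Slc7a11), 3 were not called (Slc1a4, Pck2 and Pycr1) and 1, Nupr1, fell. Windows of 150 bases of Chac1 (-250 to -101), Slc7a11 and Atf3 (both -150 to -1) are shown as examples of matches in genes that rose, with the letters in capitals on either strand.
Chac1: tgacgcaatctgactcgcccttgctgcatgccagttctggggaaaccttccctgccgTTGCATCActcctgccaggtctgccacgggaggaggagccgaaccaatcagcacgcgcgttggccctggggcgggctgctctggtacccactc
Slc7a11: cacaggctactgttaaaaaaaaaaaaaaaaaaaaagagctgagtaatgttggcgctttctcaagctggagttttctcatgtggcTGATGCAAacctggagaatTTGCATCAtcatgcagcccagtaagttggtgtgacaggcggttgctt
Atf3: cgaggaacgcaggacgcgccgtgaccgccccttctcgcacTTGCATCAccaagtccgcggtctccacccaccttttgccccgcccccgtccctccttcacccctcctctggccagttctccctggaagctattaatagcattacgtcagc
They lie at chr2:119181473-119181622 (plus strand) for Chac1, chr3:50398063-50398212 (minus strand) for Slc7a11 and chr1:190915531-190915680 (minus strand) for Atf3 in GRCm39, with 1, 2 and 1 matches. Slc7a11 had 107, 164 and 56.5 CPM in controls and 213, 215 and 167 CPM with MSNPs, and its call was lost without Control replicate 1 or MSNP replicate 1 or 2.

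**Figure D4:**
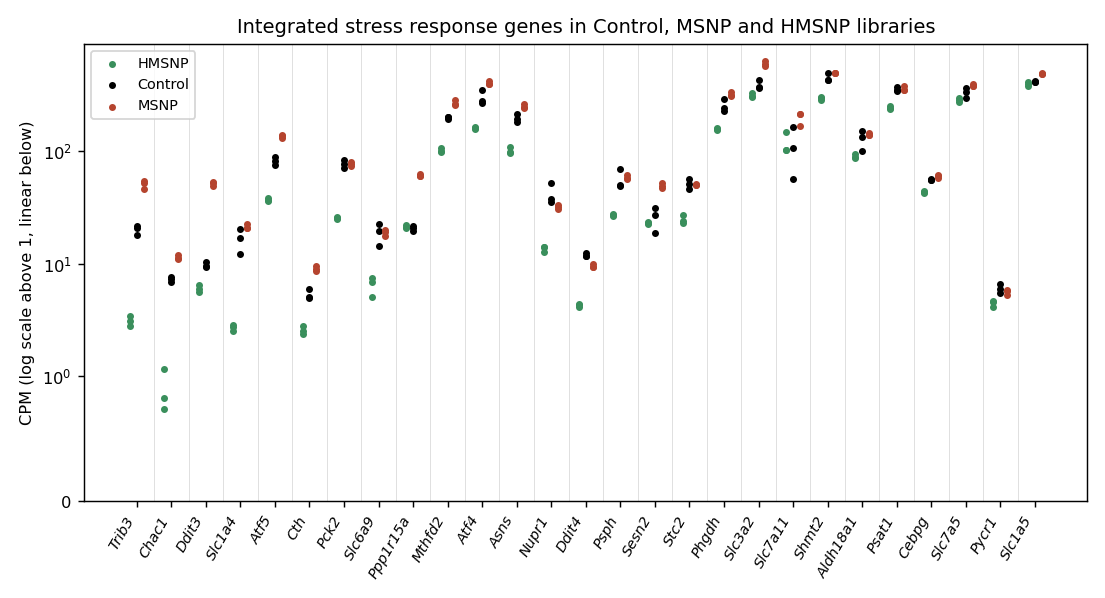
CPM (y axis, log scale above 1 and linear below) of the 27 tested genes of the integrated stress response list (x axis) in HMSNP, Control and MSNP libraries, 3 points per group. Most genes lie lowest with HMSNPs, and Trib3 and Chac1 span the most between HMSNP and MSNP.

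The other stress lists did not move as one. Of 26 ER chaperone and unfolded protein response genes, 14 rose and 0 fell, with a median of 0.26 (20, 0 and 0.32 without Control replicate 3; 1 fell without Control replicate 2 or with the length offset). The sensor Ern1 (IRE1) rose from 21.98, 25.1 and 12.03 CPM to 60.8, 64.04 and 56.6 CPM, the chaperone Hspa5 (BiP) by 0.45 on the log2 scale. Of 14 heat shock genes, 5 rose and 2 fell, with a median of 0.05 (8, 3 and 0.17, and a median of 0.09 with the length offset). The inducible Hspa1b fell from 26.6, 27.9 and 27.7 CPM to 7.83, 7.26 and 6.94 CPM (log2 fold change -1.9 ± 0.09 (SE), edgeR adjusted p = 6.76e-10), and Hsp90aa1 rose by 0.44. Hspa1b has a near-identical copy, Hspa1a, and how the counting shared reads between them is not known. Of 23 NRF2 targets, which answer oxidants, 8 rose and 6 fell, with a median of -0.11 that became 0.03 without Control replicate 3 (7 and 6), and without MSNP replicate 1 or 2 the count that rose was 3 or 4. Gstm1 (0.94) rose, and Akr1b8 (-1.32), Gclm (-0.65) and, without the length offset, Hmox1 fell. Hspa5 overlaps another annotated gene on the opposite strand, and Gclm overlaps one on the same strand.

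Secreted mediators changed in both directions. Of 17 cytokine genes, 4 rose and 3 fell, with a median of 0.05 (5, 3 and 0.06 without Control replicate 3, and medians of -0.19 without MSNP replicate 1 and 0.28 with the length offset). The shares of this list, 23.5% and 17.6%, stand beside 16.8% and 13.4% of protein-coding genes. Il1rn, the interleukin-1 receptor antagonist, rose from 50.2, 52.9 and 49.6 CPM to 292, 277 and 271 CPM (log2 fold change 2.46 ± 0.06 (SE), edgeR adjusted p = 2.63e-12). Csf1, the macrophage growth factor, rose from 0.7003, 0.578 and 0.416 CPM to 5.12, 4.21 and 3.53 CPM, and Osm from 3.87, 5.12 and 5.18 CPM to 14.2, 13.1 and 14.4 CPM. In all 3 genes the MSNP libraries lay above the controls. Tnf had 50.9, 41.95 and 56.9 CPM in controls and 53.01, 50.3 and 59.1 CPM with MSNPs, so that the groups overlapped (edgeR adjusted p = 0.595), and Il18 (-1.28) fell. Il1b had under 1 CPM in each library and did not pass (edgeR adjusted p = 0.0515), but was called lower by DESeq2 and without Control replicate 1 or 2. Il10 had 28 counts in the controls and 3 with MSNPs, a ratio of 0.112 (95% counting interval 0.0218 to 0.363). Il6, Il12a and Il12b had too few counts to be tested. Il1b overlaps another annotated gene on the opposite strand.

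Chemokines changed in both directions. Of 16, 3 rose and 7 fell, with a median of -0.87 (4, 6 and -0.65 without Control replicate 3). On the log2(CPM + 0.5) scale, which shrinks changes of genes with few counts, the medians of this list relative to the mean of the controls were -0.177 to -0.237 in the MSNP libraries and -0.172 to 0.259 in the controls. Ccl3 (MIP-1 alpha) rose from 48.05, 46 and 71.6 CPM to 299, 281 and 289.8 CPM (log2 fold change 2.39 ± 0.16 (SE), edgeR adjusted p = 2.1e-08), and its neighbor Ccl4 from 9.74, 9.92 and 17.1 CPM to 62.1, 63.8 and 59.5 CPM. Cxcl10, an interferon-induced chemokine, fell from 2.92, 2.75 and 3.696 CPM to 0.4296, 0.378 and 0.533 CPM (log2 fold change -2.8 ± 0.2 (SE), edgeR adjusted p = 6.36e-08). Cxcl2 (1.21), which recruits neutrophils, also rose, whereas Cxcl14 (-1.68), Cxcl16 (-1.38), Ccl2 (-1.08) and Ccl5 (-1.15) fell. Ccl7 had 12 counts in the controls and 0 with MSNPs, at least 3.82-fold lower against the floor of 3 counts. Ccl3, Cxcl10 and Cxcl16 overlap another annotated gene on the opposite strand.

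NF-kB subunits and their feedback genes changed in both directions. Of 25, 5 rose and 8 fell, with a median of -0.13 (8, 10 and -0.17 without Control replicate 3). Ptgs2 (COX-2) fell from 47.2, 48.2 and 32.2 CPM to 11.2, 10.3 and 10.3 CPM, and Tnip3 from 99.8, 102 and 110.0 CPM to 42.01, 37.9 and 40.7 CPM. Nfkbiz (-1.38), Nfkbia (-0.74), the I kappa B alpha inhibitor, and Bcl3 (-0.69) fell with them, whereas Tnfaip2 (1.29), the deubiquitinase Tnfaip3 (A20, 1.2), Cd83 (0.89) and Nos2 (1.29) rose. The letters GGGNNTTCC were found in 8 of 19 promoters of the list (42.1%), in 8.46% of upregulated and 8.45% of downregulated genes and in 8.45% of all promoters. Of 14 Toll-like receptor genes, 6 rose and 4 fell, with a median of 0.11 (6, 5 and -0.15 without Control replicate 3). Tlr2, the receptor for bacterial lipopeptides, fell from 372, 395 and 423 CPM to 146, 145 and 148 CPM (log2 fold change -1.44 ± 0.06 (SE), edgeR adjusted p = 1.92e-10) and Cd14 and Myd88 (-0.5) fell, while Tlr6 (0.74), Tlr1 (0.6) and the adaptor Ticam1 (1.16) rose. Of 16 inflammasome genes, 3 rose and 5 fell, with a median of -0.14 (4, 7 and -0.16; 3 fell without MSNP replicate 1 or 2), with Casp4 (0.65) higher and Nlrp3 (-0.56) lower. Bcl3, Myd88, Nfkbia, Ptgs2 and Tnfaip2 overlap another annotated gene on the opposite strand.

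Interferon-stimulated genes were the list with the largest share downregulated among those examined. Of 40, 23 fell and 3 rose, with a median of -0.66 (28, 4 and -0.8 without Control replicate 3). This stands beside 11.0% downregulated among all genes and 13.4% among protein-coding genes. Irf7, the factor that amplifies the response, fell from 7.89, 7.08 and 9.24 CPM to 2.84, 3.02 and 3.08 CPM (log2 fold change -1.44 ± 0.14 (SE), edgeR adjusted p = 1.14e-06). Rtp4 fell from 4.42, 5.03 and 5.42 CPM to 0.992, 0.756 and 0.949 CPM, and the ubiquitin-like Isg15 from 2.62, 2.46 and 3.15 CPM to 0.529, 0.621 and 1.01 CPM. These were low levels in controls already, and the MSNP libraries lay below all of them. Mx2 (-2.62), Ifit3 (-2.08), Ifit1 (-1.85), Dhx58 (-1.27) and Irf9 (-0.79) fell as well. Usp18, which removes Isg15 from proteins and restrains the receptor, went the other way, from 12.3, 12.9 and 15.7 CPM to 35.4, 35.3 and 34.6 CPM (log2 fold change 1.36 ± 0.09 (SE), edgeR adjusted p = 2.93e-08), as did Irgm1 (0.65) and Oas3 (0.55), the latter not without any 1 of the MSNP libraries. The medians of this list relative to the controls were also below 0 in the SNP100 and SNP50 libraries (-0.195 to -0.397) and -0.447 to -0.634 in the MSNP libraries, all set against the same controls. Dhx58, Irf7, Isg15 and Usp18 overlap another annotated gene on the opposite strand, and Irf9 and Rtp4 overlap one on the same strand.

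Several targets of TGF-beta, a cytokine that restrains macrophages, fell by large amounts, while the median of the list was near 0. Of 22 genes, 5 rose and 8 fell, with a median of 0.04 (5, 9 and -0.04 without Control replicate 3). Pmepa1, which limits TGF-beta signaling (ENSMUSG00000038400, chromosome 2, bases 173066251 to 173118444 on the minus strand), fell from 217, 220.2 and 265 CPM to 13.4, 15.2 and 15.5 CPM (log2 fold change -3.99 ± 0.1 (SE), edgeR adjusted p = 2.63e-12). The corepressor Skil fell from 200.1, 237 and 133 CPM to 44.4, 48.3 and 46.3 CPM. In both genes the lowest control was above 2 times the highest MSNP library. The inhibitor Smad7 (-1.17), the receptor Tgfbr1 (-1.28), Ski (-0.55), Id3 (-1.23) and Id1 (-1.05) also fell, and Id2 (0.86), Smurf1 (0.66) and the ligand Tgfb1 (0.29) rose. Id2 and Id3 overlap another annotated gene on the opposite strand.

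The immediate early genes changed in both directions, with Fos lower and Jun and Atf3 higher. Of 29, 10 rose and 15 fell, with a median of -0.31 (9, 15 and -0.34 without Control replicate 3, and -0.52 without MSNP replicate 3). Fos, a partner in the AP-1 dimer (ENSMUSG00000021250, chromosome 12, bases 85520658 to 85524047 on the plus strand), fell from 107, 94.5 and 109 CPM to 9.72, 9.797 and 10.6 CPM (log2 fold change -3.37 ± 0.1 (SE), edgeR adjusted p = 1.11e-11). Its partner Jun rose from 58.98, 57.7 and 57.2 CPM to 156, 159 and 163 CPM (log2 fold change 1.46 ± 0.06 (SE), edgeR adjusted p = 1.94e-10). Atf3, a stress-induced member of the wider family, rose from 30.8, 31.1 and 31.6 CPM to 182, 169 and 172 CPM (log2 fold change 2.48 ± 0.07 (SE), edgeR adjusted p = 2.63e-12). Fos and Jun thus moved in opposite directions with no overlap of the groups. Fosl2 (-1.5), Junb (-0.98), Jund (-0.85), Jdp2 (-1.07), Egr3 (-2.1), Nr4a1 (-1.92), Ier2 (-1.19) and Klf4 (-0.94) fell, and Bhlhe40 (1.61), Bhlhe41 (1.43), Maff (1.13) and Klf6 (0.99) rose. The AP-1 letters TGACTCA were found in 37 of 387 promoters of genes that fell at least 2-fold (9.56%) and in 6.65% of all downregulated genes. They were also found in 31 of 475 promoters of genes that rose at least 2-fold (6.53%) and in 5.04% of all upregulated genes, beside 4.58% of all promoters. Of 14 MAPK feedback genes, 3 rose and 3 fell, with a median of 0.06 (5, 3 and 0.01 without Control replicate 3, and 5, 3 and 0.1 with the length offset), with the phosphatases Dusp8 (3.07) and Dusp4 (1.25) higher and Dusp6 (-1.39) and Dusp2 (-1.06) lower. The shares of the MAPK list, 21.4% each way, stand beside 16.8% and 13.4% of protein-coding genes. Of 10 RGS genes, 2 rose and 4 fell, with a median of -0.28 (2, 5 and -0.2, and a median of -0.13 with the length offset), and Rgs1 (1.38) rose where Rgs16 fell. Bhlhe40, Bhlhe41, Dusp6, Dusp8, Jdp2, Jun, Junb, Jund and Maff overlap another annotated gene on the opposite strand.

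Receptors for uptake also changed in both directions. Of 24 scavenger and phagocytic receptor genes with their ligands, 9 rose and 11 fell, with a median of -0.13 (11, 11 and -0.06 without Control replicate 3). Gas6, the ligand that bridges dying cells to Mertk, rose from 47.4, 49.4 and 45.8 CPM to 282, 285 and 275 CPM (log2 fold change 2.56 ± 0.07 (SE), edgeR adjusted p = 2.63e-12). Olr1 (LOX-1), a receptor for oxidized LDL, fell from 29.02, 31.2 and 18.8 CPM to 2.12, 2.48 and 2.28 CPM (log2 fold change -3.51 ± 0.17 (SE), edgeR adjusted p = 1e-09). The C-type lectin Clec4e (Mincle) rose from 203, 213 and 218 CPM to 612, 561 and 558 CPM. Each gene separated the groups, in Olr1 by more than 7 times at the closest pair of libraries. Itgax (1.61), Mrc1 (1.96), Fcgr4 (1.19) and Fcgr3 (0.89) rose, and C5ar1 (-1.57), Clec7a (Dectin-1, -1.3), Clec4a2 (-1.02) and Fcgr1 fell. Of 22 endocytic coat and caveola genes, 4 rose and 4 fell, with a median of -0.03 (5, 5 and 0.07, and -0.07 with the length offset), including Rab7 (0.44), which rose, and Cav1, which fell from 4.63, 3.64 and 4.32 CPM to 0.562, 0.675 and 0.889 CPM. The shares of this list, 18.2% each way, were near those of protein-coding genes (16.8% and 13.4%). Of 11 genes of the phagocyte oxidase and related proteins, 2 rose and 4 fell, with a median of -0.06 (3, 5 and 0.09; 1 rose without MSNP replicate 1 or 2, Control replicate 1 or SNP100 replicate 1 or 2, and with the length offset 1 rose and the median was -0.21). The voltage-gated proton channel Hvcn1 rose from 2.71, 2.83 and 2.84 CPM to 29.6, 28.5 and 26.3 CPM (log2 fold change 3.33 ± 0.12 (SE), edgeR adjusted p = 5.16e-11), and the oxidase subunit Ncf1 (-0.6) fell. Gas6, Hvcn1, Ncf1 and Rab7 overlap another annotated gene on the opposite strand.

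RAW 264.7 cells can form osteoclasts, and genes of that fate diverged. Of 16, 6 rose and 7 fell, with a median of -0.05 (6, 6 and 0.03 without Control replicate 3, and a median of 0.03 with the length offset). Nfatc1, the factor that drives osteoclast formation, fell from 538, 586 and 336 CPM to 87.02, 91.9 and 90.4 CPM (log2 fold change -2.44 ± 0.16 (SE), edgeR adjusted p = 1.75e-08). The integrin Itgb3 rose from 2.497, 2.66 and 1.48 CPM to 32.98, 29.7 and 27.2 CPM (log2 fold change 3.76 ± 0.16 (SE), edgeR adjusted p = 2.38e-10). The receptor for RANKL, Tnfrsf11a, fell from 163, 147 and 108 CPM to 53.9, 51.2 and 55.7 CPM. Those that rose with Itgb3 were Atp6v0d2, Clcn7, Tcirg1, Ctsk (0.84) and Src (0.92), and those that fell with Nfatc1 included Mitf, Ocstamp (-3.18) and Car2 (-1.16). Of 15 matrix proteases and inhibitors, 2 rose and 4 fell, with a median of -0.74 (2, 4 and -0.23), and this median ranged from -0.98 to -0.22 as single MSNP libraries were left out. On the log2(CPM + 0.5) scale it was -0.048 to -0.053 in the MSNP libraries and -0.048 to 0.022 in the controls. Mmp12 rose from 0.335, 0.405 and 0.703 CPM to 8.23, 8.55 and 7.203 CPM, the activator Plau rose by 1.2, and its receptor Plaur (-0.99) and Plat (-2.63) fell. Mmp12 overlaps another annotated gene on the opposite strand.

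Metabolic and survival genes showed a limited set of changes. Of 30 glycolysis and hypoxia genes, 10 rose and 2 fell, with a median of 0.15 (14, 2 and 0.16 without Control replicate 3). Hk3, a hexokinase of myeloid cells, rose from 64.7, 60.9 and 63.6 CPM to 316, 313 and 322 CPM (log2 fold change 2.33 ± 0.06 (SE), edgeR adjusted p = 2.63e-12), and Ndrg1 from 53.7, 57.5 and 52.4 CPM to 279, 264 and 264 CPM. The glucose transporter Slc2a1 (0.46) and Pfkfb3 (0.8) rose less. Of 16 genes of the BCL2 family, 5 rose and 2 fell, with a median of 0.24 (9, 2 and 0.46, and 1 decrease without MSNP replicate 1; 9 rose with the length offset). The survival genes Bcl2l1 (1.01) and Mcl1 (0.66) and the BH3-only Pmaip1 (0.91) rose, while Bmf fell as given above. Of 23 p53 targets, 7 rose and 4 fell, with a median of 0.03 (10, 6 and 0.08, and a median of 0.08 with the length offset). Plk2 rose from 4.32, 4.31 and 3.098 CPM to 50.9, 49.7 and 48.2 CPM, and Fas (-1.77) and Cdkn1a (-0.64) fell. Of 40 DNA replication genes, 6 rose and 5 fell, with a median of 0.04 (15, 4 and 0.09, and 8 fell without Control replicate 2). With all controls, the shares of these that rose and fell were near those of all genes (11.8% and 11.0%). Without Control replicate 3, the 15 of 40 that rose stand beside 16.3% of all genes and 3022 of 13062 protein-coding genes. Of 33 mitotic genes, 2 rose and 8 fell, with a median of -0.08 (3, 11 and -0.1; 5 fell without MSNP replicate 2, 4 rose without Control replicate 2 and 1 without any 1 of the MSNP libraries), and Cdc20 (-0.51) was among those that fell. Cdc20, Cdkn1a, Hk3, Ndrg1 and Slc2a1 overlap another annotated gene on the opposite strand.

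MSNP-treated cells were then set against cells with the 2 other particles of the same nominal size. The lysosomal lists were higher and Fos, Pmepa1 and Rgs16 lower with MSNPs than with either particle. These comparisons use the same 3 MSNP libraries as the one with the controls, and the values are set side by side. Against HMSNPs at the same dose, 2181 genes were higher (11.0%) and 1829 lower (9.22%) with MSNPs. Against SNP100 at the lower dose, 2056 were higher (10.4%) and 1493 lower (7.53%). Without Control replicate 3, whose spread enters the same model, these counts were 3605 (18.4% of 19611), 3039 (15.5%), 3571 (18.2%) and 2912 (14.8%). The V-ATPase, hydrolase and membrane lists had medians of 0.74, 0.52 and 0.57 against HMSNPs, with 16, 34 and 18 genes higher and 0, 1 and 1 lower. Against SNP100 their medians were 0.57, 0.52 and 0.52, with 11, 35 and 21 higher and 0, 1 and 0 lower. Without Control replicate 3, 17, 40 and 21 were higher than with HMSNPs and 0, 2 and 1 lower. In the same fit, 17, 38 and 23 were higher than with SNP100 and 0, 4 and 0 lower. The medians of HMSNP over control were -0.1, -0.06 and 0.09.

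**Figure D5:**
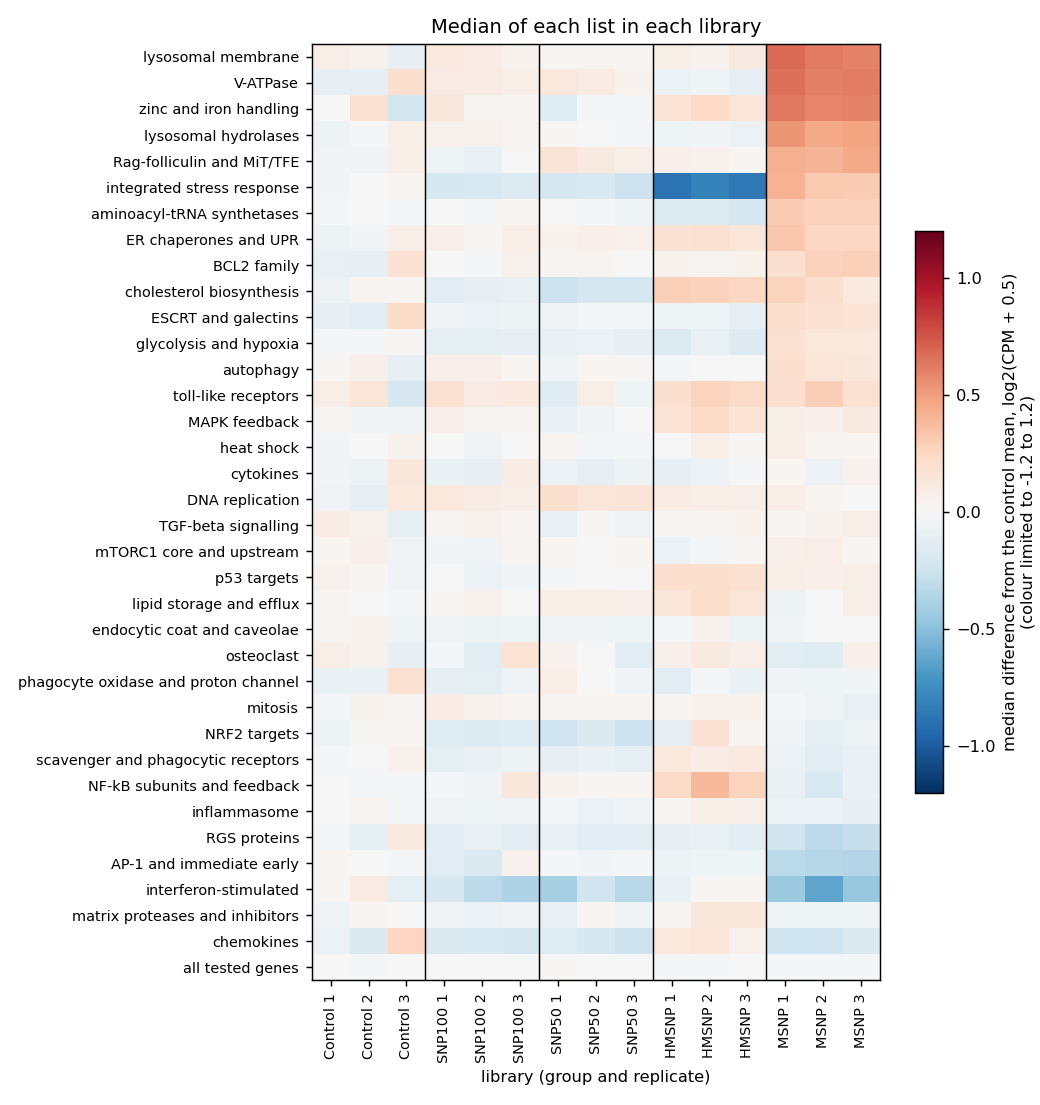
Median log2 difference from the mean of the controls for each gene list (rows) in each of the 15 libraries (columns), as a color scale. The 3 MSNP columns are alike and hold the highest values of the lysosomal rows, and the HMSNP columns hold the lowest values of the integrated stress response row (-0.814 to -0.884).

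Dio2 was at 0.04395 ± 0.03101 CPM (mean ± SD, n = 3) with HMSNPs and 0.233 ± 0.0488 CPM with SNP100, against 8.28 ± 0.406 CPM with MSNPs. Rragd was at 0.487 ± 0.0252 CPM and 1.19 ± 0.347 CPM against 19.5 ± 2.79 CPM. Gpnmb was at 706 ± 25.5 CPM and 905 ± 67.3 CPM against 4556 ± 137 CPM. In these 3 genes SNP100 at 50 µg/mL lay between HMSNP and MSNP. The differences of MSNP from HMSNP were 7.46 ± 0.35 (SE) for Dio2 and 2.69 ± 0.08 for Gpnmb on the log2 scale, and those from SNP100 5.13 ± 0.27 and 2.33 ± 0.08, all past the threshold by edgeR. Rgs16 (-4.64 and -4.24), Ermap (-3.69 and -4.6), Zfp618 (-3.86 and -3.62), Fos (-3.36 and -3.03) and Pmepa1 (-3.04 and -3.61) were lower with MSNPs than with HMSNPs and with SNP100 (the difference from HMSNPs is given first).

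The integrated stress response list had the largest share of genes higher with MSNPs than with HMSNPs among the lists examined. Against HMSNPs, 26 of its 27 genes were higher with MSNPs and 0 were lower, with a median of 1.16, beside 11.0% higher among all genes, and against SNP100, 19 were higher with a median of 0.52. Without Control replicate 3, these counts were 27 and 25. The HMSNP libraries lay below the controls, with a median of HMSNP over control of -0.89, so that most of the span between the particles was on the HMSNP side. Trib3 was at 3.07 ± 0.311 CPM with HMSNPs, 20.1 ± 1.88 CPM in controls and 50.6 ± 4.22 CPM with MSNPs. Chac1 was at 0.909 ± 0.228 CPM, 7.26 ± 0.353 CPM and 11.4 ± 0.483 CPM. Slc1a4, a neutral amino acid transporter, was at 2.71 ± 0.163 CPM, 16.5 ± 4.06 CPM and 21.3 ± 1.04 CPM and did not pass against the controls. These 3 genes were low with HMSNPs and differed less, or not beyond the threshold, between controls and MSNPs. Slc7a11, which imports cystine, was the gene of the list that did not pass against HMSNPs (0.76, edgeR adjusted p = 0.0615), and it passed without Control replicate 3.

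For cholesterol synthesis, the median of HMSNP over control was 0.27, and 3 genes were higher and 3 lower with MSNPs than with HMSNPs, against 15 higher and 1 lower than with SNP100 (4, 9, 20 and 1 without Control replicate 3). Lpl was at 1638 ± 2.35 CPM with HMSNPs, 879.5 ± 28.6 CPM in controls and 520.1 ± 10.1 CPM with MSNPs, so that it was lower with MSNPs and higher with HMSNPs. Of the interferon-stimulated genes, 28 were lower with MSNPs than with HMSNPs (median -0.92) and 14 lower than with SNP100 (median -0.23), and without Control replicate 3 these counts were 31 and 15. Hspa1b was at 9.27 ± 0.683 CPM with HMSNPs and 7.34 ± 0.454 CPM with MSNPs, both below the controls at 27.4 ± 0.724 CPM. For ER chaperones, where HMSNP over control had a median of 0.17, 5 genes were higher with MSNPs than with HMSNPs and 0 lower, against 12 and 0 for SNP100 (10, 1, 20 and 0 without Control replicate 3).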

How the data were processed

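Poly(A) RNA of RAW 264.7 cells was sequenced as directional libraries with 150-base reads. The authors deposited raw counts per gene of 15 libraries, not normalized. The submitters' processing notes name cutadapt 1.16, STAR 2.7.9a, featureCounts 1.6.3 and GRCm39; the annotation and the strand setting of the counting are not given in the sources used here, so overlapping genes named in the text are uncertain. Libraries held 29369934 to 42617812 counts. Of 57186 gene IDs, 56630 were found in GENCODE vM39, and 30400 had 0 counts in each library.

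A gene was tested if its counts in the 15 libraries together reached 10 (19839 genes). Counts were normalized by TMM and fitted with edgeR 4.0.16 in R 4.3.3 (quasi-likelihood test, group as the only term, all 5 groups), and p-values were adjusted by Benjamini-Hochberg over all tested genes with a threshold of 0.05. A gene is called upregulated, downregulated, higher or lower where it passed. CPM are TMM-normalized, and fold changes are the fitted values. Intervals and floors (3 counts summed over a group) cover counting error only.

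The genes named are the 15 largest changes each way against controls and the 5 largest against HMSNP and SNP100 among genes with at least 1 CPM in the higher group, genes the study names, and members of 35 gene lists (809 symbols, 781 tested). The groups, lists and alternatives were chosen with earlier results of these data known, and lists are described by counts and medians without a test of their own. Motifs were searched on both strands of RefSeq promoters. On simulated data with 200 changed genes, 93 of 100 2-fold and 100 of 100 4-fold changes were recovered for MSNP against control, and 11 unchanged genes were called. The changed genes had a mean of at least 1 CPM. The simulation gave all groups the same spread and held no trend with transcript length, so it does not cover these features of the controls. Alternatives were DESeq2 1.42.0, RLE normalization, other filters, a fit of 6 libraries, a transcript length offset, a replicate block and each MSNP, Control, HMSNP and SNP100 library left out. The values of a few genes are not reported here.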

Additional observations from a re-analysis of the deposited data

How the results depend on the processing

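The number of upregulated genes against controls (2348) was 1281 in a fit of the 6 libraries alone, and that of downregulated genes (2179) was 976 there and 3308 without Control replicate 2. Against HMSNPs, 2181 higher genes became 3565 in such a fit, 3605 without Control replicate 3 and 3424 with a length offset as well, and 1829 lower genes became 3577, 3039 and 3476. Against SNP100, 2056 became 3827, 3571 and 3383, and 1493 became 3315, 2912 and 3241. Fits of 6 libraries estimate the spread from fewer samples, and the fits against the other particles then leave out the controls. For the other differences the cause was not tested. Leaving out 1 MSNP, Control, HMSNP or SNP100 library at a time gave 1925 to 3214 and 1498 to 3308 against controls, 1717 to 3605 and 1369 to 3039 against HMSNPs, and 1592 to 3571 and 1037 to 2912 against SNP100. The counts at 2-fold or more stayed within 1.5 times of 734 (635 to 876) and 742 (536 to 938) in all 20 alternatives. Same-numbered MSNP and control libraries had correlations of -0.2216, 0.3428 and 0.2963 over 10659 genes, and differently numbered ones -0.4458 to 0.1923. These are correlations of deviations from means of only 3 libraries, so they cannot decide whether the numbers pair the samples. With a replicate block, 2336 and 2054 genes were called against controls, 2063 and 1739 against HMSNPs and 1938 and 1412 against SNP100. The median of the MAPK feedback list became -0.02 and that of the NRF2 targets 0.01 with a length offset and without Control replicate 3, and the latter 0.03 without that library alone, the highest of -0.12 to 0.03 with 1 library left out at a time. Of 250 genes whose values are given, 24 lost their call in the fit of 6 libraries, the most under any alternative, and none changed direction in any of the 20.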
